A study of Mus musculus with 26 samples.

Results

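The 7 enzymes described here supply NADPH or belong to the pentose phosphate pathway, and they were followed through 3 kinds of stress in NIH3T3, an established fibroblast line from mouse embryos. The genes were taken by symbol: G6pdx, Pgls and Pgd of the oxidative branch, Taldo1 and Tkt of the non-oxidative branch, and Me1 and Idh1, which make NADPH outside the pathway. All 7 were found among the 20430 gene symbols of the RNA tables and among the 19941 of the ribosome footprint tables, and all 7 passed the filter on low counts in every fit. The study asked how stress changes the transcriptome and the translatome. PolyA-selected RNA was sequenced in 16 libraries from 8 groups: heat stress at 44 °C for 2 h, heat stress at 42 °C for 8 h, a control for heat, oxidative stress with H2O2 for 2 h or 7 h, osmotic stress with KCl for 2 h or 7 h, and a second control that serves both H2O2 and KCl. Ribosome footprints, the mRNA fragments that ribosomes protect, were sequenced in 10 libraries from the 5 groups of the H2O2 and KCl experiment, so there are none under heat. Each group had 2 replicates. The labels give no dose of H2O2 or KCl, and they do not say that replicates came from separate cultures, so each p-value measures the spread between these libraries, which may be technical.

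NADPH is the reducing power that cells spend on regenerating glutathione and thioredoxin and on building lipids. In the oxidative branch, glucose-6-phosphate dehydrogenase (G6pdx) makes the committed, rate-limiting step and the first NADPH, 6-phosphogluconolactonase (Pgls) opens the lactone that results, and 6-phosphogluconate dehydrogenase (Pgd) makes the next NADPH and a pentose phosphate. Transaldolase (Taldo1) and transketolase (Tkt) shuffle carbon between pentose phosphates and glycolytic sugars without making NADPH, while malic enzyme (Me1) and isocitrate dehydrogenase (Idh1) make it in the cytosol from malate and from isocitrate. Several of these genes are known targets of NRF2, the factor that drives the antioxidant response through antioxidant response elements.

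The 300-base RefSeq promoters (250 bases before to 50 after the annotated start, assembly GRCm38.p6) are shown for the entry enzyme of the pathway and for the pair that makes NADPH outside it. The submitters' processing notes name mm10, which is the same assembly. Capitals mark a match to TGACNNNGC, the core of the antioxidant response element, searched on both strands. G6pdx and Me1 each hold 1 match, in G6pdx on the strand opposite to the one printed, with its first printed base 57 bases before the start, and in Me1 6 bases before the start. The Idh1 promoter printed here holds none.
G6pdx (chrX:74428831-74429130, minus strand): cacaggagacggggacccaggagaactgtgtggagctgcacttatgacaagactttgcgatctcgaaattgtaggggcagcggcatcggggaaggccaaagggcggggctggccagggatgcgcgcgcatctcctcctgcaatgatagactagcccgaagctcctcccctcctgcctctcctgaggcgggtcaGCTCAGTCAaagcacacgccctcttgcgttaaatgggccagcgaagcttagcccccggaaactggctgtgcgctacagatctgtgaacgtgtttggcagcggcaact
Me1 (chr9:86695865-86696164, minus strand): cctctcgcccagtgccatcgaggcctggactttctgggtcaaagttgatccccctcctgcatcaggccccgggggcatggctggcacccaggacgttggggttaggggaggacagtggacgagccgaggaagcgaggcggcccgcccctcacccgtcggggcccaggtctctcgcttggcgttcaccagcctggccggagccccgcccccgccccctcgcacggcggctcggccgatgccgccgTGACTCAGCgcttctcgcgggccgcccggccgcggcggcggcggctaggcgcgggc
Idh1 (chr1:65186430-65186729, minus strand): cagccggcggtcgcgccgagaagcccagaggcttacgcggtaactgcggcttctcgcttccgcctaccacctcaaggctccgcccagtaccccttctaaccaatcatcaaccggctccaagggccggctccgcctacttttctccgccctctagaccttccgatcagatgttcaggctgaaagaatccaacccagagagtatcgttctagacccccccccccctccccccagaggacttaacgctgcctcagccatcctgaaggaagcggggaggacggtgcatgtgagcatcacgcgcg
The table holds 10 promoters for the 7 members, and 3 of them carry the core. The third is an alternative start of Pgd (chr4:149166033-149166332), where the match begins at base 4, counting the start as base 1. Of all 32851 mouse promoters in the table, 12.4% hold this core. No member promoter holds the heat shock element core GAANNTTC (7.86% of all promoters) or the E-box CACGTG (7.15%), which says only that these letters are not in these windows. A match is a description of the sequence and not a measured binding site.

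The genes lie apart in the genome: Idh1 at chr1:65158616-65186479, Pgd at chr4:149149991-149166705, Taldo1 at chr7:141392160-141402976, Pgls at chr8:71592184-71596267, Me1 at chr9:86581363-86695914, Tkt at chr14:30549131-30574724 and G6pdx at chrX:74409483-74428880. RNA libraries held between 24441877 and 45244430 counts and footprint libraries between 1460751 and 5168537, the fewest in replicate 1 of 2 h of H2O2. No replicates were identical, and their log2 levels correlated at 0.997 to 0.998 across genes for RNA and at 0.983 to 0.991 for footprints. All 10 fibroblast markers checked were above 1 TPM in every RNA library. Their summed level lay between 4783 and 4801 TPM at 7 h of H2O2 and between 10378 and 10387 TPM in the control of that experiment, and between 9111 and 9380 TPM at 44 °C against 12538 to 12737 TPM in the heat control. The leukocyte markers Ptprc, Adgre1 and Cd3e were under 1 TPM in every library, while Cd68, a lysosomal protein used as a macrophage marker, carried most of a leukocyte sum of 42.7 to 44.7 TPM at 7 h of H2O2, 28.1 to 29.6 TPM at 2 h of H2O2 and 17.5 to 19.4 TPM at 2 h of KCl, against 9.59 to 9.98 TPM in control. The summed epithelial, endothelial and skeletal muscle markers stayed at or below 3.59, 3.18 and 0.77 TPM. The part of these marker shifts in the results was not tested, and in bulk samples fewer cells of a type and less RNA per cell cannot be told apart.

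In unstressed cells Tkt and Pgd were the most abundant of the 7 transcripts. On the TPM scale, which divides by transcript length and so allows genes to be compared, RNA in the control for H2O2 and KCl was 258 ± 3.7 for Pgd, 253 ± 7.2 for Tkt, 168 ± 2.8 for Taldo1, 125 ± 4.2 for G6pdx, 108 ± 1.8 for Me1, 74.8 ± 3.4 for Idh1 and 63.1 ± 3.3 for Pgls (SD, n = 2). Pgd and Tkt overlapped there (256 and 261 TPM against 258 and 248 TPM), and each further step down the order separated both libraries. The control for heat gave the same order below the top pair, with Tkt at 231 ± 3.2 TPM, Pgd at 191 ± 8.2 TPM and Pgls lowest at 75.7 ± 0.86 TPM (SD, n = 2). Footprints in control ranked Tkt first at 339 ± 51 TPM, followed by Pgd at 181 ± 19, Taldo1 at 162 ± 5.7, G6pdx at 93.8 ± 1.3, Me1 at 83.2 ± 5.4, Idh1 at 60.5 ± 7.2 and Pgls at 45.4 ± 1.3 TPM (SD, n = 2), and no neighbours in that order overlapped. The log2 ratio of footprint to RNA CPM (counts scaled to library size) in control was highest for Taldo1 and Tkt, at 0.82 in both, which is higher than in 91.5% of genes for each, and lowest for Me1 at -0.18. This ratio does not divide by transcript length, and the order of the genes depends on the scale. In TPM, footprints against RNA were 339 against 253 for Tkt and 162 against 168 for Taldo1. They were 83.2 against 108 for Me1 and 181 against 258 for Pgd.

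**Figure D1:**
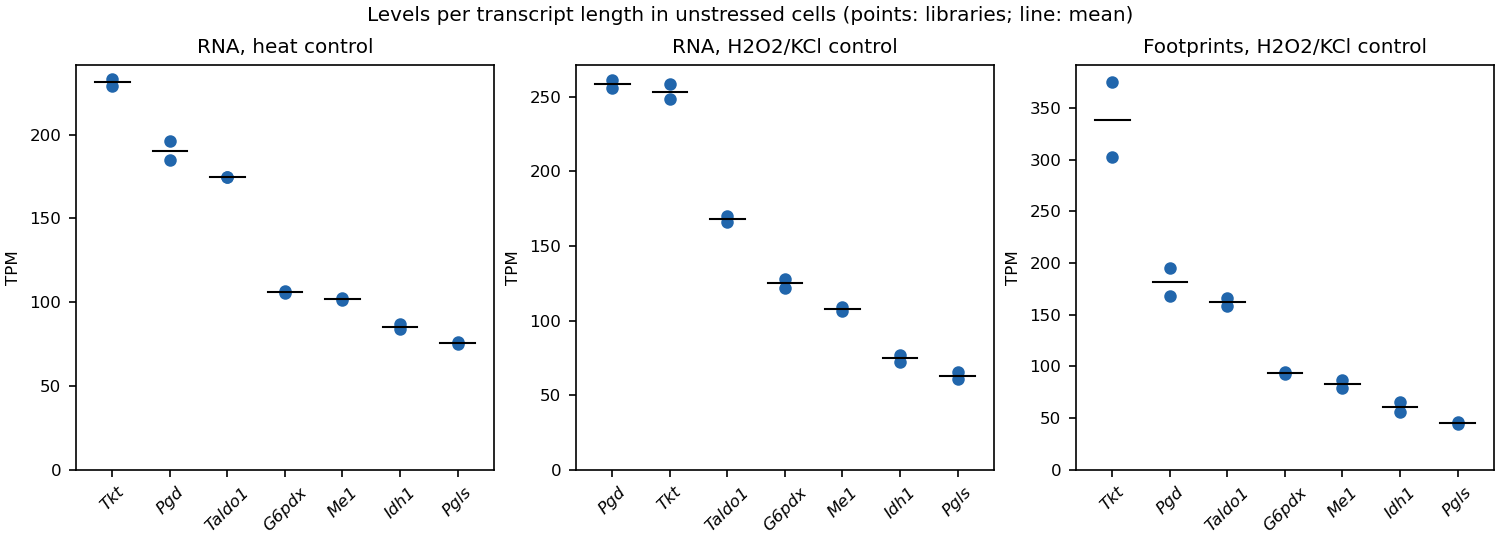
TPM of each gene in unstressed cells, in the heat control and the H2O2/KCl control for RNA and in the H2O2/KCl control for footprints. Points are the 2 libraries and lines their mean, and genes are ordered by the mean, with Tkt and Pgd at the top in all 3 panels and Pgls at the bottom.

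The short, hotter heat stress lowered most of the 7 transcripts. At 44 °C for 2 h 6 of 7 fell and none rose, where 35.7% of the 12747 genes tested were lower and 35.4% higher (edgeR's quasi-likelihood test, Benjamini-Hochberg adjusted p under 0.05, which is the rule for every call here unless another is named). The median log2 fold change of the 7 was -0.40, against -0.00034 over all genes. At 42 °C for 8 h 2 fell, G6pdx and Idh1, and 3 rose, Taldo1, Tkt and Me1, where 31.9% of genes were lower and 31.7% higher. This tally depends on the scale: limma on log2(TPM + 1), where the median of all genes was -0.16, called 1 higher, Me1, and 5 lower, G6pdx, Pgls, Pgd, Tkt and Idh1. Compared directly, 5 of 7 were higher at 42 °C for 8 h than at 44 °C for 2 h and none was lower, where 37.9% of genes were higher and 37.2% lower. On log2(TPM + 1), where the median of all genes was -0.20, limma called 4 higher and 2 lower, G6pdx (-0.21, limma adjusted p = 0.000905) and Pgd, and Tkt lost its call (0.063, limma adjusted p = 0.127). Temperature and time differ together between these groups and cannot be told apart.

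H2O2 moved the 7 genes in opposite directions, and the pattern changed with time. At 2 h Pgd rose and 4 fell, Pgls, Taldo1, Tkt and Idh1, where 27.3% of 13256 genes were higher and 26.5% lower. At 7 h 4 rose, the 3 oxidative enzymes G6pdx, Pgls and Pgd together with Taldo1, and 2 fell, Me1 and Idh1, where 39.4% of genes were higher and 31.1% lower. The median log2 fold change of the 7 was -0.19 at 2 h and 0.27 at 7 h, against -0.00095 and 0.075 over all genes. All 7 differed between 7 h and 2 h of H2O2, 5 higher at 7 h and 2 lower, where 37.3% of genes were higher and 36.1% lower.

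Under KCl edgeR called 1 member at 2 h and 6 at 7 h, a contrast that depends on the scale. At 2 h Pgls fell and no other member passed the test, where 27.0% of genes were lower and 27.2% higher. There limma on log2(TPM + 1), where the median of all genes was -0.068, called 4 members lower, Idh1 among them, and none higher. At 7 h 5 rose, G6pdx, Taldo1, Tkt, Me1 and Idh1, and Pgls fell, where 37.2% of genes were higher and 31.6% lower. On log2(TPM + 1) limma called 3 higher and 1 lower at 7 h, without Taldo1 and Tkt. All 7 differed between 7 h and 2 h of KCl, 6 higher at 7 h and Pgls lower, where 35.1% of genes were higher and 33.7% lower. The H2O2 and KCl comparisons share their control libraries, so their values are given side by side. The shares of all genes called are high in every RNA comparison, and the members' shares are to be read against them.

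**Figure D2:**
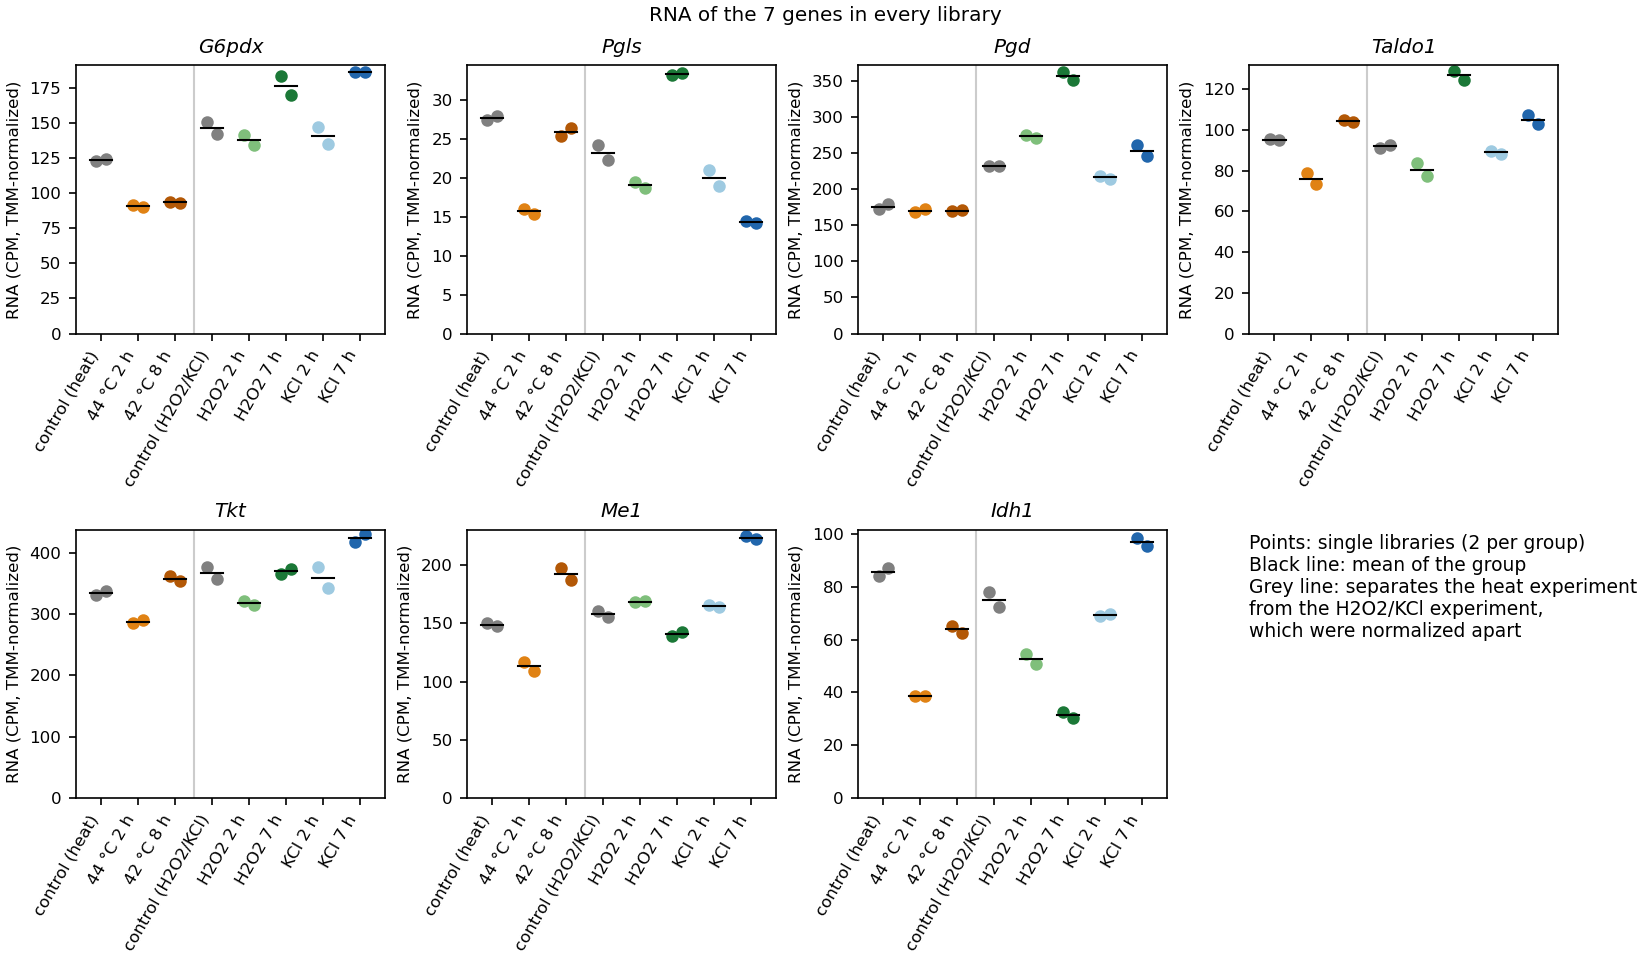
RNA of each gene in every library, in TMM-normalized CPM on axes that start at 0. Points are single libraries and black lines the mean of 2. The grey line separates the heat experiment from the H2O2/KCl experiment, which were normalized apart, and Idh1 is lowest at 44 °C and at 7 h of H2O2.

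G6pdx, the entry point of the pathway, fell under both heat stresses and rose at 7 h of both H2O2 and KCl. Its RNA was 123 and 124 CPM (counts scaled to library size after TMM normalization) in the 2 heat control libraries, 91.6 and 90.0 CPM at 44 °C and 93.8 and 93.2 CPM at 42 °C. The stressed libraries lay below both controls, and the log2 fold change was -0.44 at 44 °C (SE 0.040, edgeR adjusted p = 2.36e-07) and -0.40 at 42 °C (SE 0.041, edgeR adjusted p = 1.08e-06). In the other experiment it was 150.4 and 142 CPM in control, 141 and 134 CPM at 2 h of H2O2, 183 and 169 CPM at 7 h of H2O2, 147 and 135 CPM at 2 h of KCl and 186 and 186 CPM at 7 h of KCl. Every 7 h library was above both controls, by a log2 fold change of 0.27 under H2O2 (SE 0.065, edgeR adjusted p = 0.00182) and 0.35 under KCl (SE 0.065, edgeR adjusted p = 0.000254). The 2 h libraries straddled or lay under the controls, and neither difference passed the test (-0.086 for H2O2 and -0.055 for KCl on the log2 scale). G6pdx was the member for which the 7 h responses to H2O2 and KCl lay closest, at a difference of -0.077 (SE 0.065, edgeR adjusted p = 0.289), which does not show that they are equal.

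Pgls, the lactonase that links both dehydrogenases, differed more between H2O2 and KCl at 7 h than any other member but Idh1; at 2 h the difference was -0.064 (edgeR adjusted p = 0.536). Its RNA was 27.5 and 28.0 CPM in the heat control, 16.1 and 15.4 CPM at 44 °C and 25.4 and 26.4 CPM at 42 °C. The 44 °C libraries lay far under the others, and the log2 fold change there was -0.82 (SE 0.063, edgeR adjusted p = 4.45e-08), while -0.099 at 42 °C did not pass the test (edgeR adjusted p = 0.168). On log2(TPM + 1) the value at 42 °C was -0.28 and was called (limma adjusted p = 0.000678). Control libraries of the other experiment held 24.2 and 22.3 CPM, 2 h of H2O2 19.5 and 18.8 CPM, 7 h of H2O2 33.2 and 33.5 CPM, 2 h of KCl 21.0 and 19.0 CPM and 7 h of KCl 14.5 and 14.2 CPM. Groups did not overlap between control and any of these 4 treatments. Pgls fell at 2 h of H2O2 by 0.28 on the log2 scale (SE 0.076, edgeR adjusted p = 0.00637) and then stood above control at 7 h by 0.52 (SE 0.074, edgeR adjusted p = 2.21e-05). Under KCl it fell by 0.22 on the log2 scale at 2 h (SE 0.078, edgeR adjusted p = 0.0281) and by 0.70 at 7 h (SE 0.081, edgeR adjusted p = 3.09e-06), so that 7 h of H2O2 exceeded 7 h of KCl by 1.22 (SE 0.081, edgeR adjusted p = 4.50e-09), a 2.32-fold difference. The call at 2 h of KCl was lost without control replicate 1 (edgeR adjusted p = 0.194) or KCl replicate 2 (edgeR adjusted p = 0.219), with DESeq2 (adjusted p = 0.0784) and with only the groups compared (edgeR adjusted p = 0.0579). The fall at 2 h of H2O2 was lost without H2O2 replicate 2 (edgeR adjusted p = 0.0529) or control replicate 1 (edgeR adjusted p = 0.0723).

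Pgd, which releases the next NADPH, rose at both times of H2O2 and passed the test in no other comparison with a control. Its RNA was 172 and 179.8 CPM in the heat control, 168 and 172 CPM at 44 °C and 169 and 171 CPM at 42 °C, with log2 fold changes of -0.046 at 44 °C and -0.049 at 42 °C that did not pass the test. On log2(TPM + 1) its value at 42 °C was -0.22 and was called (limma adjusted p = 0.000719). In the other experiment control held 233 and 232 CPM, 2 h of H2O2 275 and 271 CPM, 7 h of H2O2 362 and 351 CPM, 2 h of KCl 219 and 214 CPM and 7 h of KCl 261 and 246 CPM. All 4 H2O2 libraries were above every control and KCl library. The log2 fold change was 0.23 at 2 h of H2O2 (SE 0.056, edgeR adjusted p = 0.00303) and 0.62 at 7 h (SE 0.056, edgeR adjusted p = 2.07e-07), a 1.53-fold rise. At 7 h of KCl it was 0.13 (SE 0.056, edgeR adjusted p = 0.0614), which passed the threshold without KCl 7 h replicate 2 (0.17, edgeR adjusted p = 0.0462). The direct test placed H2O2 above KCl by 0.34 at 2 h (SE 0.057, edgeR adjusted p = 0.000211) and by 0.49 at 7 h (SE 0.056, edgeR adjusted p = 1.65e-06).

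Taldo1, the transaldolase, fell at 44 °C and early under H2O2 (2 h), and rose at 7 h of either agent. Heat control libraries held 95.3 and 95.2 CPM, 44 °C libraries 78.6 and 73.6 CPM and 42 °C libraries 105 and 104 CPM. It fell at 44 °C by 0.32 on the log2 scale (SE 0.045, edgeR adjusted p = 1.51e-05), and its log2 fold change at 42 °C was 0.13 (SE 0.044, edgeR adjusted p = 0.0161). In the other experiment it was 91.3 and 92.6 CPM in control, 83.6 and 77.4 CPM at 2 h of H2O2, 129 and 125 CPM at 7 h of H2O2, 89.5 and 88.3 CPM at 2 h of KCl and 107 and 103 CPM at 7 h of KCl. The 7 h libraries of both treatments lay above both controls, and those of 2 h of H2O2 lay below. The log2 fold change was -0.19 at 2 h of H2O2 (SE 0.059, edgeR adjusted p = 0.0135), 0.46 at 7 h of H2O2 (SE 0.058, edgeR adjusted p = 5.89e-06) and 0.19 at 7 h of KCl (SE 0.059, edgeR adjusted p = 0.00998). The call at 2 h of H2O2 was lost without H2O2 replicate 2 (edgeR adjusted p = 0.153) or control replicate 2 (edgeR adjusted p = 0.0645), and that at 7 h of KCl without KCl replicate 1 (edgeR adjusted p = 0.0771) or control replicate 1 (edgeR adjusted p = 0.0529). With only the groups compared, the value at 7 h of KCl also missed the threshold (edgeR adjusted p = 0.0633), as it did on log2(TPM + 1) at 0.089 (limma adjusted p = 0.140).

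Tkt, the transketolase, stayed within 0.22 of its control on the log2 scale in all 6 RNA comparisons with a control. It was 331 and 338 CPM in the heat control, 285 and 290.1 CPM at 44 °C and 362 and 354 CPM at 42 °C, groups that did not overlap. The log2 fold change was -0.22 at 44 °C (SE 0.039, edgeR adjusted p = 0.000161) and 0.098 at 42 °C (SE 0.039, edgeR adjusted p = 0.0375). The rises of Tkt and Taldo1 at 42 °C rest on the scaling and on every library: without any 1 of the 4 libraries neither was called (edgeR adjusted p between 0.0563 and 0.0850 for Taldo1 and between 0.0602 and 0.184 for Tkt). On log2(TPM + 1) both turned negative, to -0.054 for Taldo1 (limma adjusted p = 0.320) and to -0.089 for Tkt, which was then called lower (limma adjusted p = 0.0455). In the other experiment Tkt was 377 and 358 CPM in control, 321 and 315 CPM at 2 h of H2O2, 367 and 375 CPM at 7 h of H2O2, 377 and 342 CPM at 2 h of KCl and 418 and 431 CPM at 7 h of KCl. Only 2 h of H2O2, below, and 7 h of KCl, above, stood clear of both controls, at log2 fold changes of -0.21 (SE 0.061, edgeR adjusted p = 0.0111) and 0.21 (SE 0.061, edgeR adjusted p = 0.00787). The first call was lost without H2O2 replicate 2 (edgeR adjusted p = 0.0728) or control replicate 1 (edgeR adjusted p = 0.0854), and the second without KCl replicate 2 (edgeR adjusted p = 0.0523) or control replicate 2 (edgeR adjusted p = 0.0666), and on log2(TPM + 1), at 0.11 (limma adjusted p = 0.105). At 7 h of H2O2 Tkt was at 0.012 (SE 0.061, edgeR adjusted p = 0.871), a value whose sign changed with the normalization.

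Me1, the cytosolic malic enzyme, fell at 44 °C and rose at 42 °C and at 7 h of KCl. Its RNA was 150.1 and 148 CPM in the heat control, 117 and 109.5 CPM at 44 °C and 198 and 188 CPM at 42 °C. The 3 groups did not overlap, with log2 fold changes of -0.40 at 44 °C (SE 0.046, edgeR adjusted p = 2.60e-06) and 0.37 at 42 °C (SE 0.045, edgeR adjusted p = 6.32e-06). Me1 thus had the largest direct difference between the 2 heat stresses among the members, 0.77 higher at 42 °C (SE 0.046, edgeR adjusted p = 1.98e-09). Control libraries of the other experiment held 161 and 156 CPM, 2 h of H2O2 168 and 169 CPM, 7 h of H2O2 139 and 143 CPM, 2 h of KCl 166 and 164 CPM and 7 h of KCl 225 and 223 CPM. The KCl 7 h libraries stood above all others, at a log2 fold change of 0.50 (SE 0.054, edgeR adjusted p = 1.52e-06). At 7 h of H2O2 the log2 fold change was -0.17 (SE 0.054, edgeR adjusted p = 0.0138), a call that was lost without H2O2 replicate 1 (-0.15, edgeR adjusted p = 0.0879) or control replicate 1 (-0.14, edgeR adjusted p = 0.0828). The 2 h values of 0.092 under H2O2 and 0.060 under KCl did not pass the test.

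Idh1, the cytosolic isocitrate dehydrogenase, fell most of the 7 at 44 °C and under H2O2, fell at 42 °C about as much as G6pdx, and rose at 7 h of KCl. It was 83.9 and 87.3 CPM in the heat control, 38.6 and 38.5 CPM at 44 °C and 65.3 and 62.6 CPM at 42 °C. The log2 fold change was -1.15 at 44 °C (SE 0.048, edgeR adjusted p = 9.90e-11), a 2.22-fold fall, and -0.42 at 42 °C (SE 0.046, edgeR adjusted p = 2.34e-06). In the other experiment control held 78.0 and 72.3 CPM, 2 h of H2O2 54.7 and 50.5 CPM, 7 h of H2O2 32.5 and 30.3 CPM, 2 h of KCl 69.1 and 69.6 CPM and 7 h of KCl 98.4 and 95.4 CPM. No group overlapped its control. Under H2O2 the log2 fold change was -0.52 at 2 h (SE 0.065, edgeR adjusted p = 1.36e-05) and -1.26 at 7 h (SE 0.067, edgeR adjusted p = 6.44e-10), a 2.39-fold fall. Under KCl it was -0.12 at 2 h, which did not pass the test (SE 0.064, edgeR adjusted p = 0.141), and 0.37 at 7 h (SE 0.064, edgeR adjusted p = 0.000141). The value at 2 h of KCl was -0.21 on log2(TPM + 1) and was called lower there (limma adjusted p = 0.0141). At 7 h H2O2 lay 1.62 below KCl on the log2 scale (SE 0.068, edgeR adjusted p = 3.13e-11), a 3.08-fold difference. Leaving out any 1 of the 4 libraries compared kept the fall at 7 h of H2O2 between -1.31 and -1.20.

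**Figure D3:**
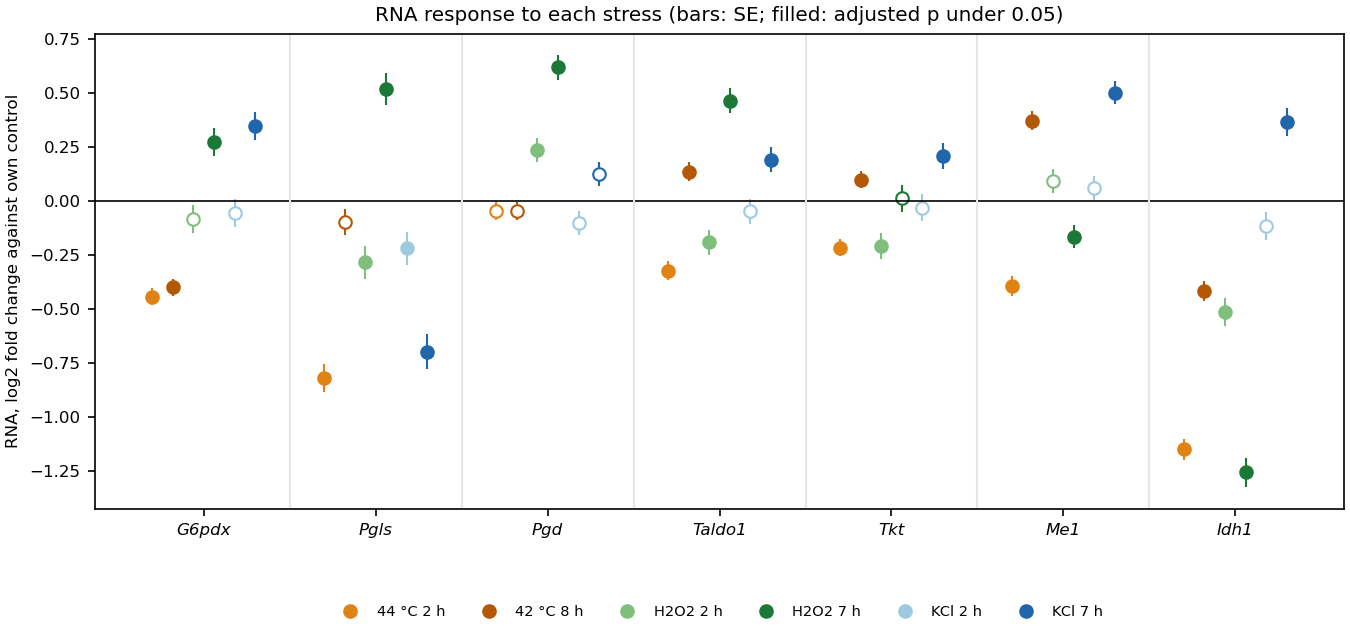
Log2 fold change of RNA against the control of the same experiment for each gene and stress, with SE bars from edgeR. Filled points passed an adjusted p of 0.05 and open points did not, and Idh1 reaches -1.15 at 44 °C and -1.26 at 7 h of H2O2 while Pgd reaches 0.62 at 7 h of H2O2.

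The direct tests between stresses showed where the members parted. At 2 h H2O2 exceeded KCl for Pgd and lay below KCl for Tkt (-0.18, SE 0.062, edgeR adjusted p = 0.0280) and Idh1 (-0.40, SE 0.066, edgeR adjusted p = 0.000181), so 1 of 7 was higher and 2 lower, where 27.0% of genes were higher and 24.2% lower. The Tkt call was lost without either H2O2 2 h replicate (edgeR adjusted p = 0.0893 and 0.130) or KCl replicate 1 (edgeR adjusted p = 0.200), with only the groups compared (edgeR adjusted p = 0.0907) and on log2(TPM + 1) (-0.081, limma adjusted p = 0.250). At 7 h 3 were higher under H2O2, Pgls, Pgd and Taldo1 (0.27 for Taldo1, SE 0.059, edgeR adjusted p = 0.000660), and 3 lower, Tkt (-0.20, SE 0.062, edgeR adjusted p = 0.00971), Me1 (-0.67, SE 0.055, edgeR adjusted p = 4.31e-08) and Idh1, where 41.0% of genes were higher and 37.4% lower. The Tkt call at 7 h was lost without H2O2 7 h replicate 1 (edgeR adjusted p = 0.0739) or KCl 7 h replicate 2 (edgeR adjusted p = 0.0592). Pgls, Pgd and Taldo1 were thus on the H2O2 side and Me1 and Idh1 on the KCl side at 7 h.

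Heat and H2O2 were compared as responses at 2 h, each against its own control. The H2O2 response was higher than the 44 °C response for 6 of 7, where 33.7% of 13597 genes were higher and 24.3% lower and the median of all genes was 0.11. The difference was 0.68 for Idh1 (SE 0.082, edgeR adjusted p = 1.74e-06), 0.58 for Pgls (SE 0.097, edgeR adjusted p = 6.23e-05), 0.53 for Me1 (SE 0.069, edgeR adjusted p = 3.96e-06), 0.40 for G6pdx (SE 0.079, edgeR adjusted p = 0.000312) and 0.32 for Pgd (SE 0.069, edgeR adjusted p = 0.000599). Idh1 and Pgls fell in both experiments at 2 h, and fell less under H2O2. Taldo1 was at 0.18 (SE 0.074, edgeR adjusted p = 0.0492), a call lost in 12 of the alternatives. These included leaving out any library other than H2O2 2 h replicate 2, with edgeR adjusted p between 0.0783 and 0.618. Tkt was at 0.053 (SE 0.073, edgeR adjusted p = 0.558).

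Over the 12 stressed RNA libraries, taken as log2 differences from their own control means, Me1 and Idh1 were the most alike pair of members (Pearson r = 0.85) and Pgd and Idh1 the most opposed (r = -0.43). Among 9239 genes compared, Sec31a (0.986) and Id3 (0.985) were among those close to Idh1. The nearest genes to the other members were Akr1b8 for G6pdx (0.98), Mvb12b for Pgls (0.99), Gnl2 for Pgd (0.98), Uchl1 for Taldo1 (0.98), Mprip for Tkt (0.95) and Sf3b3 for Me1 (0.99). These are descriptions over 12 libraries that share 2 controls and 6 treatments, chosen as the highest of many genes.

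Ribosome footprints were followed for H2O2 and KCl. None of the 7 passed the test in any of the 4 footprint comparisons. The background in the same order of H2O2 at 2 h and 7 h and KCl at 2 h and 7 h was 1.91%, 27.7%, 6.86% and 20.4% of 10545 genes. At an unadjusted edgeR p under 0.05 the members counted were 0, 1 lower, 0, and 1 higher with 1 lower, and DESeq2 and limma on log2(TPM + 1) also called none. The largest shift was in Pgls at 7 h of KCl, from 26.9 and 32.7 CPM in control to 18.0 and 21.6 CPM, groups that did not overlap (log2 fold change -0.58, SE 0.23, edgeR adjusted p = 0.0863). Idh1 footprints were 79.2 and 70.3 CPM in control, 60.02 and 73.3 CPM at 2 h of H2O2, 53.0 and 49.8 CPM at 7 h of H2O2, 89.9 and 86.9 CPM at 2 h of KCl and 110.1 and 91.1 CPM at 7 h of KCl. The 7 h H2O2 libraries were below both controls (-0.54, SE 0.19, edgeR adjusted p = 0.0512), and the value passed the threshold when only those groups were fitted (edgeR adjusted p = 0.0449). The 7 log2 fold changes ran from -0.15 (Idh1) to 0.21 (Pgd) at 2 h of H2O2, from -0.54 (Idh1) to 0.32 (Pgls) at 7 h of H2O2, from 0.11 (Tkt) to 0.26 (Pgd) at 2 h of KCl and from -0.58 (Pgls) to 0.42 (Idh1) at 7 h of KCl. Members had 42 to 2939 counts in a footprint library, and in data simulated for the 2 h H2O2 comparison the same test recovered 0% of changes of 0.5, 24% of changes of 1 and 76.9% of changes of 2 on the log2 scale. At 2 h of H2O2 a change of the size seen in the members' RNA was therefore mostly not detectable, and recovery at the other times was not simulated.

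Translational efficiency, the change in footprints beyond the change in RNA tested as 1 interaction term, moved for Idh1 at 7 h of H2O2. Idh1 footprints fell less than its RNA: the log2 footprint to RNA ratio was 0.0032 in control and 0.72 at 7 h of H2O2, beside 0.31 at 2 h of H2O2, 0.35 at 2 h of KCl and 0.088 at 7 h of KCl. The interaction at 7 h of H2O2 was 0.72 (SE 0.17, edgeR adjusted p = 0.0152), so 1 of 7 was higher and none lower, where 4.69% of 10480 genes were higher and 4.57% lower. DESeq2 gave an adjusted p of 0.000319 and limma with a weight per kind of library 0.0276. The edgeR call was lost without RNA 7 h replicate 2 (0.68, edgeR adjusted p = 0.0659), RNA control replicate 1 (0.65, edgeR adjusted p = 0.0736) or footprint 7 h replicate 1 (0.65, edgeR adjusted p = 0.0644). The other 6 members had values from -0.43 (Pgd) to -0.047 (Me1) there, and without footprint 7 h replicate 2 Pgd (-0.70, edgeR adjusted p = 0.0477) and Taldo1 (-0.59, edgeR adjusted p = 0.0432) were called lower too. None of the 7 was called at 2 h of H2O2, 2 h of KCl or 7 h of KCl, where 11.4%, 12.8% and 5.57% of genes were. In those 3 comparisons none had an unadjusted edgeR p under 0.05, and neither DESeq2 nor the weighted limma fit called any. The values ran from -0.067 (Pgd) to 0.34 (Idh1) at 2 h of H2O2, from 0.085 (Me1) to 0.35 (Pgd) at 2 h of KCl and from -0.18 (Me1) to 0.27 (Pgd) at 7 h of KCl.

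**Figure D4:**
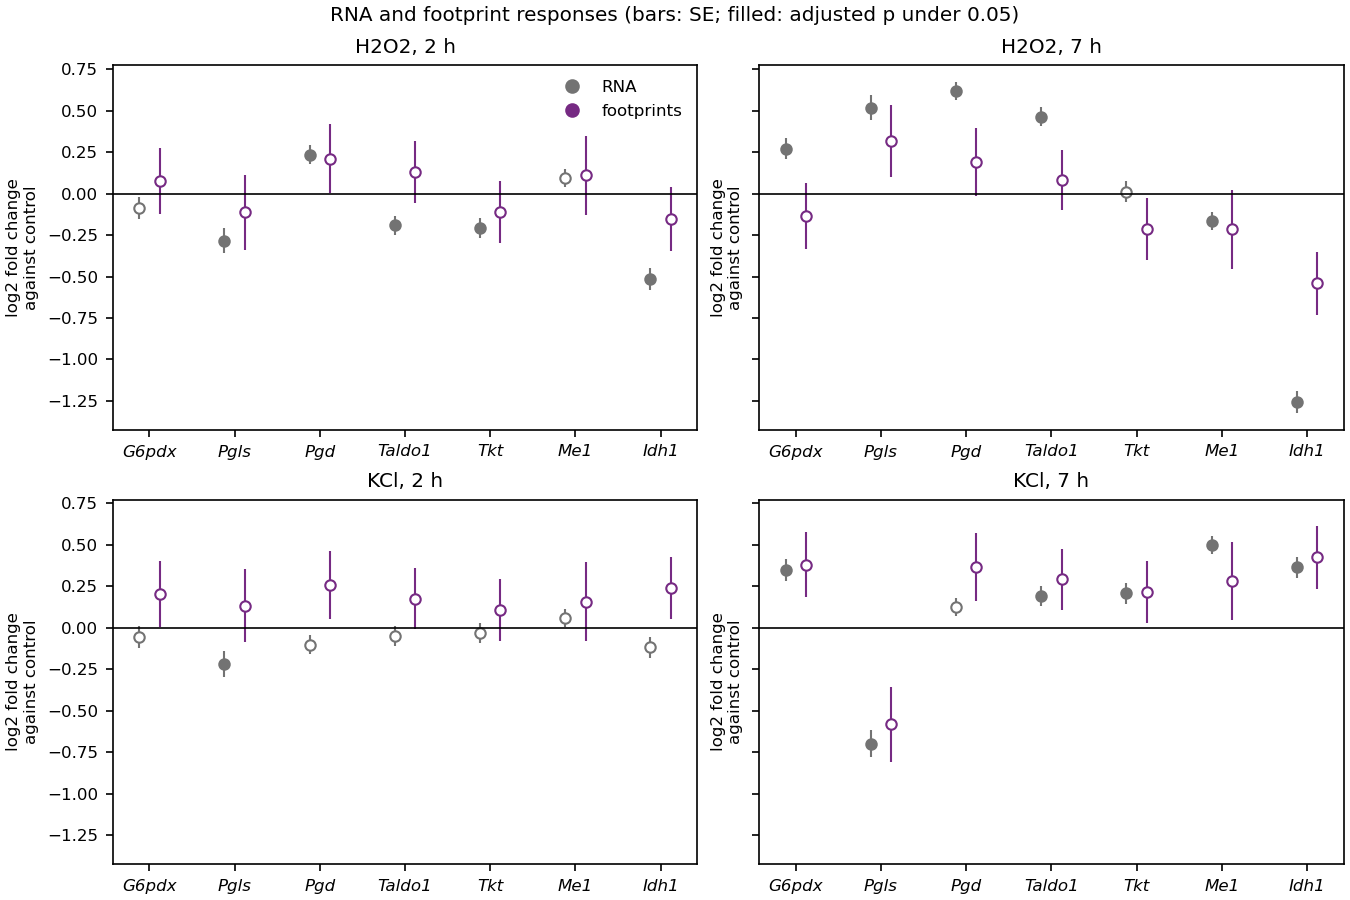
Log2 fold change against control of RNA (grey) and footprints (purple) for each gene at 2 h and 7 h of H2O2 and of KCl, with SE bars from edgeR. Filled points passed an adjusted p of 0.05; footprint points are all open, and at 7 h of H2O2 Idh1 footprints (-0.54) lie above Idh1 RNA (-1.26).

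A near-identical copy bears on G6pdx. G6pd2, an intronless copy on chromosome 5, took 0 to 2 counts in an RNA library, at most 0.0756% of the reads of both genes, and 46 to 127 counts in a footprint library, 13.3% to 18.7% of both (median 15.5%). The footprint level of G6pdx is therefore uncertain by about that share. Summing both rows changed no call.

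Other genes of the pathway and of NADPH metabolism were counted from fixed lists. The counts are to be read against the shares of all genes: 35.4% rose and 35.7% fell at 44 °C, and 31.7% rose and 31.9% fell at 42 °C. Those shares were 27.3% and 26.5% by 2 h of H2O2, 39.4% and 31.1% by 7 h of H2O2, 27.2% and 27.0% by 2 h of KCl, and 37.2% and 31.6% by 7 h of KCl, so that several counts lie near them. Of 11 other pentose phosphate genes tested, 1 rose and 7 fell at 44 °C, and 4 rose and 3 fell at 42 °C. Under H2O2 2 rose and 6 fell at 2 h, and 7 rose and 3 fell at 7 h. Under KCl 0 rose and 2 fell at 2 h, and 1 rose and 8 fell at 7 h. At 7 h of H2O2 Rpe, the ribulose-phosphate epimerase, rose by 1.41 on the log2 scale (SE 0.058, edgeR adjusted p = 3.62e-11). Dera, which cleaves deoxyribose phosphate, fell there by 0.96 (SE 0.081, edgeR adjusted p = 9.12e-08) and at 44 °C by 1.42 (SE 0.072, edgeR adjusted p = 6.73e-10). At 7 h of KCl Prps1, which makes phosphoribosyl pyrophosphate, fell by 0.71 (SE 0.075, edgeR adjusted p = 1.12e-06), while Tigar, a phosphatase that favours the pathway over glycolysis, was at 0.33 (SE 0.085, edgeR adjusted p = 0.00307). The median log2 fold change of this list at 7 h was 0.36 under H2O2 and -0.26 under KCl, against 0.075 and 0.039 over all genes.

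Of 13 other enzymes linked to the supply of NADPH or NADP, not all of which make NADPH, 2 rose and 10 fell at 44 °C. At 42 °C 6 rose and 6 fell. With H2O2 1 rose and 4 fell by 2 h, and 8 rose and 5 fell by 7 h. With KCl 2 rose and 0 fell by 2 h, and 3 rose and 7 fell by 7 h. Mthfd2, the mitochondrial methylene-tetrahydrofolate dehydrogenase, rose by 1.84 at 7 h of H2O2 (SE 0.067, edgeR adjusted p = 1.01e-11), and Nnt, the mitochondrial transhydrogenase, fell there by 1.16 (SE 0.060, edgeR adjusted p = 4.52e-10). Nadk2, the mitochondrial NAD kinase, rose by 2.32 at 7 h of KCl (SE 0.074, edgeR adjusted p = 1.61e-11). Aldh1l2, the mitochondrial formyl-tetrahydrofolate dehydrogenase, fell by 2.19 at 42 °C (SE 0.057, edgeR adjusted p = 1.02e-12). Of 9 enzymes that spend NADPH against oxidants, 3 rose and 0 fell at 2 h of H2O2 and 6 rose and 1 fell at 7 h, with thioredoxin reductase Txnrd1 at 1.55 at 2 h (SE 0.064, edgeR adjusted p = 1.70e-10) and carbonyl reductase Cbr3 at 2.60 at 7 h (SE 0.094, edgeR adjusted p = 9.72e-12). In the same list 2 rose and 3 fell at 44 °C, and 4 rose and 3 fell at 42 °C. KCl raised 2 and lowered 1 by 2 h, and raised 4 and lowered 4 by 7 h. Of 4 NADPH oxidase genes tested, subunits included, 2 rose and 0 fell at 2 h of H2O2, and 2 rose and 1 fell at 7 h. The fall was in Nox4 (-0.47, SE 0.14, edgeR adjusted p = 0.00773). At 44 °C none of 3 of these genes passed edgeR's test, at the adjusted or at the unadjusted threshold.

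In footprints 3 of 11 pathway genes tested rose and 1 fell at 7 h of H2O2. These are not the same 11 as in RNA, and 10 genes passed the filter on low counts in both. G6pd2, the copy of G6pdx, passed it only in footprints. Of 12 enzymes linked to the supply of NADPH or NADP, 6 rose and 0 fell, where 27.7% of all genes were called in either direction. How these counts differ from those of the members was not tested. Translational efficiency fell for Txnrd1 at 2 h of H2O2 (-1.44, SE 0.24, edgeR adjusted p = 0.00135) and for Mthfd2 at 7 h (-1.29, SE 0.20, edgeR adjusted p = 0.000925), and rose for Nnt at 7 h (0.73, SE 0.17, edgeR adjusted p = 0.0121), a value close to that of Idh1.

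The study is about transcription that runs past a gene's end. For each RNA library and 6399 neighbouring gene pairs, the authors deposited whether the upstream gene had such a downstream transcript and whether it read into its neighbour. Each member is in 1 pair. Downstream transcripts were called in 16 of 112 member pairs and libraries (14.3%), against 28.5% over all pairs, with G6pdx before Fam3a called in 5 of 16 libraries, Pgd before Apitd1 in 3, and the other 5 pairs in 1 or 2. Reading into the neighbour was called in 0 of 112, against 1.38% over all pairs. For Idh1, Taldo1 and Pgls, which are the downstream genes of their pairs, the authors' deposited read-in estimate, a ratio given without its formula, reached at most 0.00368, 0.000487 and 0.0140.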

How the data were processed

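RNA and ribosome footprints of 26 libraries were analysed. Expected counts were deposited by the authors for each gene, as were TPM values, which divide by transcript length. The counts were rounded to whole numbers before use. STAR, RSEM and Bowtie with build mm10 are named in the submitters' processing notes, with no versions. The calls of downstream transcripts and of reading into a neighbour, and the read-in estimate (a ratio), were also deposited by the authors, and 12 columns that matched no labelled sample were not used. The sources used here do not give whether counting used strand.

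Counts were normalized with TMM, filtered with filterByExpr and tested with edgeR 4.0.16 in R 4.3.3 (quasi-likelihood, Benjamini-Hochberg over all genes tested, threshold 0.05), with 1 fit for heat RNA, 1 for H2O2 and KCl RNA, 1 for footprints, 1 for translational efficiency and 1 for all RNA. A prior count of 2 was used for log2 levels. Alternatives were RLE normalization, DESeq2 1.42.0, limma 3.58.1 on log2(TPM + 1) and log2(TPM + 0.1) or with weights, no filter, only the groups compared, a replicate block, G6pdx and G6pd2 summed, and each library left out. The code was tested on simulated data: of changes of 0.5 on the log2 scale it recovered 78% for 44 °C and 72.7% for 2 h of H2O2 in RNA, and of all its calls there 12% and 6.25% were false. From other lists, the largest called rise and fall per treatment with an average of at least 3 log2 CPM could be named. The members and lists were chosen with earlier results of these data known. Correlations with other genes used log2 differences from the control mean, and 1 gene is not reported here. Promoters and coordinates are from RefSeq, GRCm38.p6.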

Additional observations from a re-analysis of the deposited data

Results flagged for a closer look

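The response to H2O2 differed between its times for all 7 members by a direct test of 7 h against 2 h. That test called 37.3% of all genes higher and 36.1% lower at 7 h. On the log2 scale the difference was 0.36 for G6pdx, 0.80 for Pgls, 0.38 for Pgd, 0.66 for Taldo1 and 0.22 for Tkt, all higher at 7 h, and -0.26 for Me1 and -0.74 for Idh1 (edgeR adjusted p from 1.79e-07 for Taldo1 to 0.00527 for Tkt). Pgls and Taldo1 stood below control at 2 h and above it at 7 h.

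The response to KCl also differed between times for all 7, where 35.1% of all genes were higher at 7 h and 33.7% lower. The difference was 0.40 for G6pdx, -0.48 for Pgls, 0.23 for Pgd, 0.24 for Taldo1, 0.24 for Tkt, 0.44 for Me1 and 0.48 for Idh1 (edgeR adjusted p from 5.71e-06 for Me1 to 0.00331 for Tkt).

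The response to 2 h of H2O2 differed from that to 2 h at 44 °C for 6 members, each higher under H2O2. The same test called 33.7% of all genes higher and 24.3% lower, and the median of all genes was 0.11. The differences were 0.40 for G6pdx, 0.58 for Pgls, 0.32 for Pgd, 0.18 for Taldo1, 0.53 for Me1 and 0.68 for Idh1. The Taldo1 call (edgeR adjusted p = 0.0492) was lost with RLE normalization (edgeR adjusted p = 0.0944).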

How the results depend on the processing

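Of 255 recomputed numbers of members called, 238 stayed within 1.5 times the reported number. With each library left out in turn, the lone library was assumed to vary like the other groups. The number was then 3 instead of 5 at 42 °C, 2 to 5 at 2 h of H2O2, 0 to 1 at 2 h of KCl and 0 to 3 for translational efficiency at 7 h of H2O2. At 2 h of KCl it was 0 with DESeq2 and with only the groups compared and 4 with either TPM scale, and for footprints at 7 h of H2O2 it was 1 with only the groups compared. Of 1152 recomputed single values 1058 kept direction and side of the threshold, 55 lost the call, 11 gained it and 28 changed sign. On log2(TPM + 1) and log2(TPM + 0.1), Taldo1 at 42 °C was -0.054 and -0.054, Tkt at 42 °C -0.089 and -0.090, G6pdx at 42 °C against 44 °C -0.21 and -0.21, Pgd at 44 °C 0.034 and 0.034, Tkt at 7 h of H2O2 -0.067 and -0.067, and Me1 at 2 h of KCl -0.0016 and -0.0016. Tkt in H2O2 against heat was -0.053 on log2(TPM + 1) and -0.037 to 0.083 without 1 library. Tkt at 7 h of H2O2 was -0.021 with RLE normalization and with DESeq2, -0.0055 with no filter, -0.054 with only the groups compared and -0.024 to 0.049 without 1 library. Without 1 library Tkt footprints at 2 h of KCl ran from -0.022 to 0.31, and translational efficiency ran from -0.12 to 0.27 for Me1 at 2 h of KCl, from -0.49 to 0.068 for Me1 at 7 h of KCl and from -0.22 to 0.081 for Pgd at 2 h of H2O2. On the TPM scale the median of all genes was -0.16 at 42 °C and -0.20 for 42 °C against 44 °C. The cause of these changes was not tested. With a replicate block the number called was 7 instead of 6 at 7 h of KCl (Pgd joined, adjusted p = 0.0492) and 4 instead of 3 for H2O2 against KCl at 2 h, and it was the same in every other comparison. The labels tie replicates across groups by number only. Deviations of same-numbered libraries correlated at -0.02 to 0.12 for heat RNA, -0.05 to 0.05 for H2O2 and KCl RNA and -0.38 to 0.42 for footprints. Correlations over 0.1 were found in 1 of 3 pairs of groups for heat RNA and 0 of 10 for H2O2 and KCl RNA. For footprints they were found in 6 of 10, with a median of 0.20 over all 10.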
